A study of Homo sapiens with 24 samples.

Results

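The 53 genes described here carry out and time DNA replication, and were chosen by gene symbol from a list of DNA replication and S phase genes. All 53 were present among the 13033 gene symbols of the expression table. They were grouped by role into G1 to S control (6 genes), origin licensing (10), helicase activation (6), polymerases and primase (8), clamp, clamp loader and lagging strand (8), single-strand binding (3), fork protection and checkpoint (5), nucleotide supply (4) and chromatin behind the fork (3). Poly(A) RNA was sequenced from 2 established human acute myeloid leukaemia lines, so each group describes a single line. Molm-14 carries FLT3-ITD, an internal tandem duplication in the receptor kinase FLT3, and OCI-AML3 (spelled OCIAML-3 in the labels) carries NRAS Q61L, an activating change in a RAS protein. Cells of each line received RMC-7977 at 25 nM for 2 h, RMC-7977 at 25 nM for 24 h, or the solvent DMSO. RMC-7977 binds RAS proteins in their active, GTP-loaded state. Each group had 4 libraries, except OCI-AML3 at 24 h with 3, because the third library labelled for it was not analysed here. No time is given for DMSO, so each line had 1 DMSO group that served both times, and all labelled libraries carry the same batch.

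Replication origins are licensed in G1, when the origin recognition complex, CDC6 and CDT1 load the ring-shaped MCM helicase onto DNA. Cyclin-dependent kinases and MCM10, CDC45 and GINS then switch the helicase on, and polymerases alpha, delta and epsilon copy the DNA behind it with the sliding clamp PCNA. Most of these genes are transcribed at the G1 to S transition under E2F factors, which the retinoblastoma protein restrains until growth signals, among them RAS signalling, activate the G1 cyclin kinases. In leukaemia cells, which divide continuously in culture, the whole set is normally expressed.

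The deposited values were log2 CPM (counts of a gene for each 1 M of a scaled library size), and levels are given here as CPM. Summed over the table, the CPM of a library came to 915890.5 to 1059614, so the scaled size is not the total of its counts. These effective sizes, recovered from the table, ran from 15.4 to 22.4 M reads. The lowest member value in any library was 1.39 CPM (CCNE2), about 25 reads, so no member reached the lowest value of the table, 0.105 CPM. CPM is not scaled to transcript length, so levels are compared for 1 gene across groups and not between genes. Of 11 myeloid marker genes, 10 were in the table, among them CD33 and SPI1, while 0 of 7 lymphoid and 0 of 7 erythroid and platelet markers were listed. Of 9 epithelial and stromal markers 3 were listed, KRT18, COL1A2 and PECAM1. The labels do not say whether replicate libraries were made from separate cultures. The p-values therefore reflect the spread among the libraries at hand, which may be technical.

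Promoters are shown because E2F sites are the best known shared feature of replication genes, and because members with and without the letters of such a site can be compared with the values below. RefSeq promoters (GRCh38.p14, 250 bases before to 50 after the start of each gene) were matched for 45 of the 53 members, the others being MCM4, MCM5, GINS4, POLD3, CCNE2, E2F8, RPA2 and RPA3. The letters TTTGGCGC, TTTCCCGC, TTTGCCGC or TTTCGCGC, on either strand, stood in 23 of 45 member promoters (51.1%), in 5.42% of the promoters of 10440 genes of the table and in 3.33% of all 27305 promoters. Overlapping copies on opposite strands were each counted as a match of their own, and of 30 matches 20 began within 100 bases before the start. The following sequences run 5′ to 3′ on the gene's strand, with the E2F letters in capitals. MCM6 (chr2:135876394-135876693, minus strand) held the most matches, 4, as 2 overlapping pairs. CDC6 (chr17:40287629-40287928, plus strand), CDC25A (chr3:48188368-48188667, minus strand) and E2F1 (chr20:33686336-33686635, minus strand) are members with large changes below and held 1, 1 and 2 matches. MCM10 (chr10:13161308-13161607, plus strand), the member with the deepest 24 h change, and RFC1 (chr4:39366313-39366612, minus strand), the one with the shallowest in OCI-AML3, held none of the letters searched. TTTGGCGG, which differs from TTTGGCGC only in its last letter, was not searched. It stands on the gene's strand in the CDC6 and MCM10 sequences below and on the other strand in the RFC1 sequence.
MCM6: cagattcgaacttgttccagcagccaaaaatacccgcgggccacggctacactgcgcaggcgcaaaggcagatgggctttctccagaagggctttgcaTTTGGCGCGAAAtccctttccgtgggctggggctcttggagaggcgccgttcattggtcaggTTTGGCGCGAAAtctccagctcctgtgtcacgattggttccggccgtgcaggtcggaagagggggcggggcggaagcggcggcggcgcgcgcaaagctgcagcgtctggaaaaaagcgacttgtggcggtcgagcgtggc
CDC6: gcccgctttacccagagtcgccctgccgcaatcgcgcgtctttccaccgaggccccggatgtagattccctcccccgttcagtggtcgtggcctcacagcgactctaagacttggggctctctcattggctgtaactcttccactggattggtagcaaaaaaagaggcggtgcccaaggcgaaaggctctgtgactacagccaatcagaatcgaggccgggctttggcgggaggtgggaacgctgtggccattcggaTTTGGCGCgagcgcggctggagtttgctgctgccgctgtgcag
CDC25A: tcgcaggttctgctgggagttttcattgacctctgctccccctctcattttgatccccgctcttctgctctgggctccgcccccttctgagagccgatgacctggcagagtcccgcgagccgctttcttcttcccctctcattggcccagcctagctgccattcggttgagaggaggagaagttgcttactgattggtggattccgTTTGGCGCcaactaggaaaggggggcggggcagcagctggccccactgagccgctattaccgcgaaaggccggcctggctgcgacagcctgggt
E2F1: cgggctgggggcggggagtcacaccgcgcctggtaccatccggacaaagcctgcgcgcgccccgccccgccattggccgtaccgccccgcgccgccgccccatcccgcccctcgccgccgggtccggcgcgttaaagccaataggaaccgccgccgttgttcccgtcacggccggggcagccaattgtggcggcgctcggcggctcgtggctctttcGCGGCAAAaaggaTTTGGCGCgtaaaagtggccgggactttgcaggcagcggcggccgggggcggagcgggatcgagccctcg
MCM10: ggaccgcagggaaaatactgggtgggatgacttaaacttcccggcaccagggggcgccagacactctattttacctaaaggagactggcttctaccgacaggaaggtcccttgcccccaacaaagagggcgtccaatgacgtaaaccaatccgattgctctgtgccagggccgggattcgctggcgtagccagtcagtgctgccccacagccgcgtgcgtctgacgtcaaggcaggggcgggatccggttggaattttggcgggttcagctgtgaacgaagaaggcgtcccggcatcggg
RFC1: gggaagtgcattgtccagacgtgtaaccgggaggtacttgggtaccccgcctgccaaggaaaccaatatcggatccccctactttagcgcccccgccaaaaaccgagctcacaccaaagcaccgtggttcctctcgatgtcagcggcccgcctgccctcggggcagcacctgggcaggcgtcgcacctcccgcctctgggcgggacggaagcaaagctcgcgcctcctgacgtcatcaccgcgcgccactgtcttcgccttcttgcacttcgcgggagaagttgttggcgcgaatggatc

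Among the other motifs searched on both strands, CCAAT (the NF-Y motif) stood in 28 of 45 member promoters (62.2%), against 36.8% of the table's genes and 35.7% of all promoters. CACGTG (an E-box) was found in 6 member promoters (13.3%), against 10.2% and 7.44%. TTTGAA or TTTAAA (the cell cycle homology region) was found in 4 (8.89%), against 15.9% and 24.3%. The 23 members with E2F letters had a median log2 fold change at 24 h against DMSO of -3.00 in OCI-AML3 and -1.32 in Molm-14, and the 22 without had medians of -2.36 and -1.07. MCM10, CDC45, RRM2 and FEN1, which had some of the deepest changes, held none of the E2F letters searched. CDT1, which had the shallowest change of all in Molm-14, held 1 match. The search left out TTTGGCGG, which the MCM10 promoter holds, so a member without a match may still hold similar letters. These matches describe letters in a window and were not tested as sites.

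After 24 h of RMC-7977 the replication genes were lower in both lines, and deeper in OCI-AML3 than in Molm-14. Calls required a limma p below 0.05, after Benjamini-Hochberg adjustment over all 13033 genes, and a log2 fold change of 1 or more in size, and rose and fell are used only for genes so called. In Molm-14, 36 of 53 members fell and none rose, while 6.57% of all genes tested were called lower, 11.4% higher and 17.9% in either direction. In OCI-AML3, 49 of 53 fell and none rose, while 17.1% of all genes were called lower, 18.4% higher and 35.4% in either direction. The member median log2 fold change was -1.18 in Molm-14, which leaves 44.2% of the DMSO level, and -2.58 in OCI-AML3, which leaves 16.7%. The medians over all genes were 0.00 in Molm-14 and 0.01 in OCI-AML3. In every treated library at 24 h each of the 53 members lay below every DMSO library of its line, where 36.6% of all genes did so in Molm-14 and 41.0% in OCI-AML3. No member lay above, where 34.7% and 41.3% of all genes did. In bulk RNA, fewer cells in S phase and less RNA of these genes per cell cannot be told apart.

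Single libraries of a group were close together. The member median, taken in each library against the mean of its line's DMSO libraries, lay between -1.16 and -1.15 in the 4 Molm-14 libraries at 24 h. In the 3 OCI-AML3 libraries at 24 h it lay between -2.65 and -2.59. At 2 h it lay between -0.04 and -0.01 in Molm-14 and between -0.16 and -0.10 in OCI-AML3, with members on both sides of 0. The median SD of a member within a group was 0.06 on the log2 scale, and the largest was 0.36 (GINS3 in OCI-AML3 at 24 h).

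**Figure D1:**
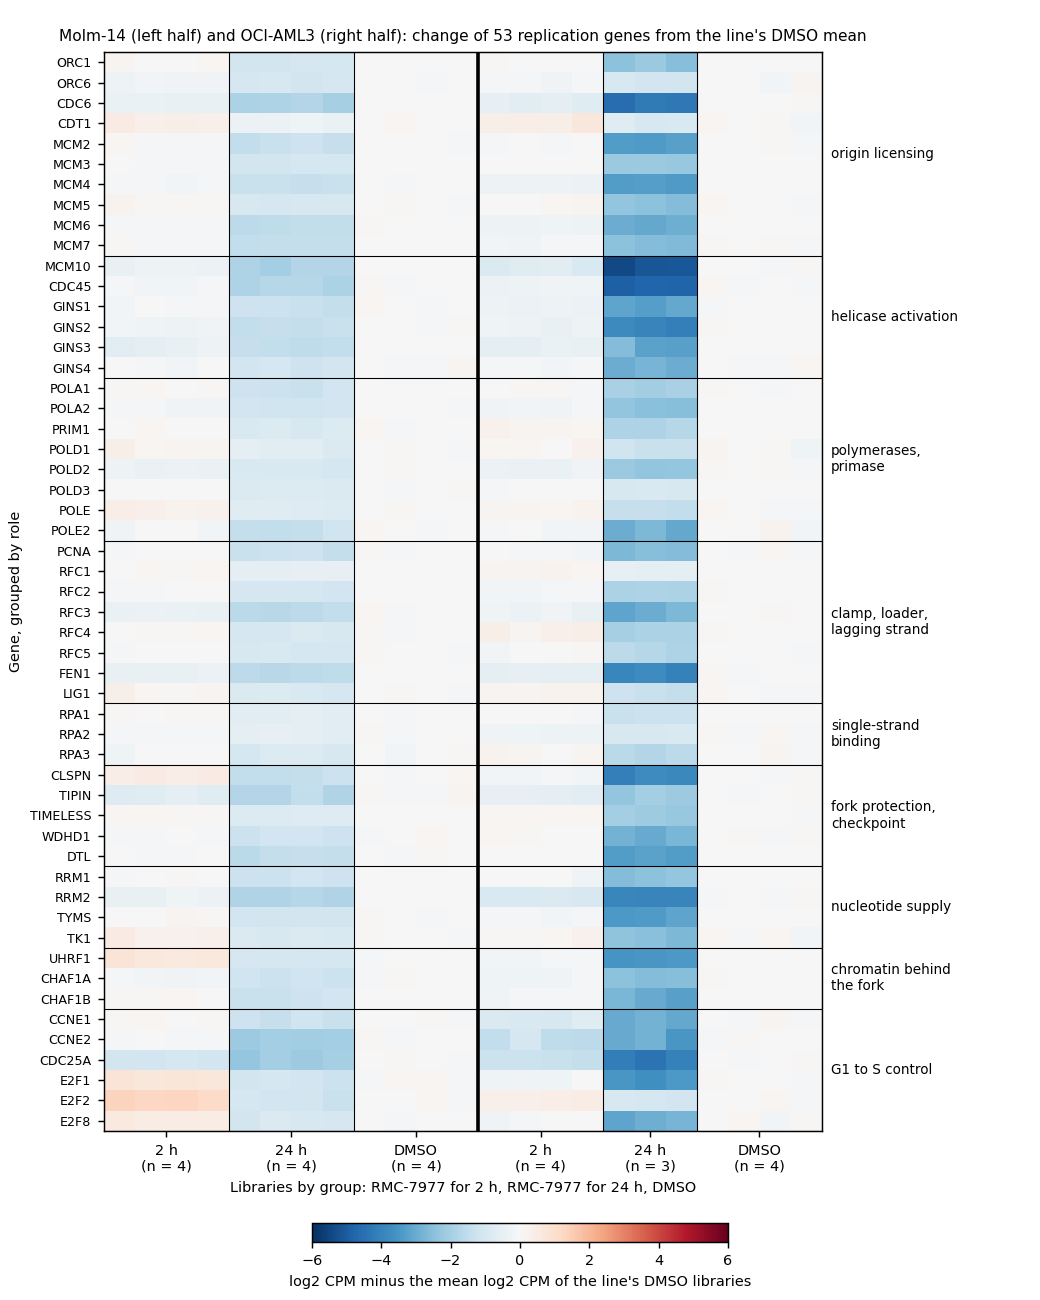
Each row is 1 of the 53 genes, grouped by role, and each column is 1 of the 23 libraries, grouped as RMC-7977 for 2 h, RMC-7977 for 24 h and DMSO in Molm-14 (left of the thick line) and OCI-AML3 (right of it). Colour gives log2 CPM minus the mean log2 CPM of the line's DMSO libraries, and every gene is blue in every library at 24 h, down to a log2 fold change of -5.21 for MCM10 in OCI-AML3.

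At 2 h few replication genes had passed the threshold. In Molm-14, 1 of 53 members rose (E2F2) and 1 fell (CDC25A), while 7.29% of all genes tested were called, 4.30% higher and 2.98% lower. In OCI-AML3, 2 fell (CCNE2 and CDC25A) and none rose, while 6.58% of all genes were called, 3.23% higher and 3.35% lower. The member medians were -0.04 in Molm-14 and -0.13 in OCI-AML3, against 0.00 and 0.02 over all genes. Another 27 members in Molm-14 and 34 in OCI-AML3 had a limma adjusted p below 0.05 with a fold change under the threshold. The share of all genes meeting that rule is not given here, so these counts are not read as a trait of the members. In Molm-14 at 2 h, 17 members lay below every DMSO library and 14 above, against 28.2% and 25.4% of all genes. In OCI-AML3, 25 lay below and 8 above, against 27.3% and 27.1%. The 2 h and 24 h comparisons of a line share its DMSO libraries, so their values are given side by side and are not correlated with each other.

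The 6 genes of G1 to S control held every member called at 2 h. CDC25A (chr3:48157146-48188402) encodes the phosphatase that activates CDK2 with cyclin E at the entry into S phase. CDC25A had 32.2, 30.9, 33.3 and 31.8 CPM in Molm-14 at 2 h, 14.01, 17.1, 15.5 and 17.5 CPM at 24 h and 69.2, 72.7, 69.6 and 66.7 CPM in DMSO. In OCI-AML3, CDC25A had 31.2, 30.8, 30.3 and 28.3 CPM at 2 h, 4.28, 3.47 and 4.47 CPM at 24 h and 74.7, 70.8, 76.8 and 79.8 CPM in DMSO. In both lines the 2 h libraries lay between the 24 h and the DMSO libraries, with no overlap. For CDC25A in Molm-14, the log2 fold change against DMSO was -1.12 ± 0.07 (adjusted p = 1.5e-14) at 2 h and -2.12 ± 0.07 (SE; limma adjusted p = 8.05e-22) at 24 h. For CDC25A in OCI-AML3, the log2 fold change against DMSO was -1.32 ± 0.07 (adjusted p = 3.67e-16) at 2 h and -4.22 ± 0.08 (SE; limma adjusted p = 6.79e-29) at 24 h.

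CCNE2 (chr8:94879770-94896678) and CCNE1 (chr19:29811898-29824308) encode the E cyclins, which pair with CDK2 to start S phase. In Molm-14, CCNE2 was at 32.8, 33.1, 32.2 and 31.4 CPM after 2 h and 7.44, 8.35, 7.95 and 8.22 CPM after 24 h, against 35.5, 32.6, 34.6 and 33.4 CPM in DMSO. CCNE2 in OCI-AML3 stood at 5.59, 7.79, 5.46 and 5.24 CPM at 2 h, 1.93, 2.21 and 1.39 CPM at 24 h and 14.4, 16.6, 15.8 and 16.02 CPM in DMSO. In Molm-14 the 2 h and DMSO ranges of CCNE2 overlapped, while in OCI-AML3 every 2 h library lay below every DMSO library. Against DMSO in Molm-14, CCNE2 had a log2 fold change of -0.07 ± 0.11 (adjusted p = 0.60, not called) at 2 h and of -2.09 ± 0.11 (SE; limma adjusted p = 7.53e-17) at 24 h. Against DMSO in OCI-AML3, CCNE2 had a log2 fold change of -1.40 ± 0.11 (adjusted p = 3.54e-12) at 2 h and of -3.12 ± 0.12 (SE; limma adjusted p = 1.06e-20) at 24 h. For CCNE1, the Molm-14 libraries held 17.5, 17.96, 16.98 and 17.4 CPM at 2 h, 6.98, 6.46, 7.34 and 6.496 CPM at 24 h and 16.7, 17.05, 17.4 and 15.4 CPM in DMSO. Levels of CCNE1 in OCI-AML3 were 18.04, 17.6, 17.2 and 20.1 CPM at 2 h, 4.06, 4.75 and 4.03 CPM at 24 h and 33.8, 32.02, 37.4 and 30.8 CPM in DMSO. For CCNE1 too, the 2 h and DMSO ranges overlapped in Molm-14 and did not in OCI-AML3, where the 2 h change stayed under the fold threshold. CCNE1 in Molm-14 had a log2 fold change against DMSO of 0.07 ± 0.08 (adjusted p = 0.45, not called) at 2 h and of -1.29 ± 0.08 (SE; limma adjusted p = 1.05e-15) at 24 h. CCNE1 in OCI-AML3 had a log2 fold change against DMSO of -0.88 ± 0.08 (adjusted p = 2.81e-11, not called) at 2 h and of -2.97 ± 0.08 (SE; limma adjusted p = 2.58e-24) at 24 h.

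E2F1 (chr20:33675683-33686404) and E2F2 (chr1:23506430-23531220) encode transcription factors that activate replication genes, and E2F8 encodes a repressor of the same family. E2F2 had 74.7, 69.7, 71.3 and 65.7 CPM in Molm-14 at 2 h, 14.3, 13.3, 13.7 and 11.8 CPM at 24 h and 29.1, 29.7, 31.6 and 27.5 CPM in DMSO. In OCI-AML3, E2F2 had 14.03, 14.3, 15.004 and 15.7 CPM at 2 h, 5.78, 5.56 and 5.197 CPM at 24 h and 11.3, 11.6, 12.3 and 10.4 CPM in DMSO. E2F2 was above DMSO in every 2 h library and below DMSO in every 24 h library, in both lines. For E2F2 in Molm-14, the log2 fold change against DMSO was 1.25 ± 0.07 (adjusted p = 9.86e-16) at 2 h and -1.15 ± 0.07 (SE; limma adjusted p = 2.35e-15) at 24 h. For E2F2 in OCI-AML3, the log2 fold change against DMSO was 0.37 ± 0.07 (adjusted p = 3.56e-05, not called) at 2 h and -1.05 ± 0.08 (SE; limma adjusted p = 8.78e-14) at 24 h. With library totals in place of the authors' scaling the OCI-AML3 fold change of E2F2 at 24 h was -0.88. It was -0.98 with median-of-ratios scaling and -0.94 with a pseudocount of 1 CPM, all under the threshold. In Molm-14, E2F1 was at 111, 103, 106 and 104 CPM after 2 h and 29.4, 31.2, 28.9 and 26.5 CPM after 24 h, against 58.5, 68.8, 68.8 and 59.99 CPM in DMSO. E2F1 in OCI-AML3 stood at 62.3, 62.8, 62.3 and 75.1 CPM at 2 h, 6.57, 5.72 and 6.85 CPM at 24 h and 77.6, 74.5, 75.3 and 68.2 CPM in DMSO. At 2 h E2F1 was above all DMSO libraries in Molm-14, while in OCI-AML3 the ranges overlapped. Against DMSO in Molm-14, E2F1 had a log2 fold change of 0.73 ± 0.07 (adjusted p = 1.18e-10, not called) at 2 h and of -1.14 ± 0.07 (SE; limma adjusted p = 1.35e-15) at 24 h. Against DMSO in OCI-AML3, E2F1 had a log2 fold change of -0.17 ± 0.07 (adjusted p = 0.027, not called) at 2 h and of -3.54 ± 0.07 (SE; limma adjusted p = 2.1e-27) at 24 h. E2F8 had log2 fold changes of 0.49 at 2 h and -0.98 at 24 h in Molm-14, neither called, and of -0.10 at 2 h and -2.97 at 24 h in OCI-AML3, where it fell at 24 h.

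**Figure D2:**
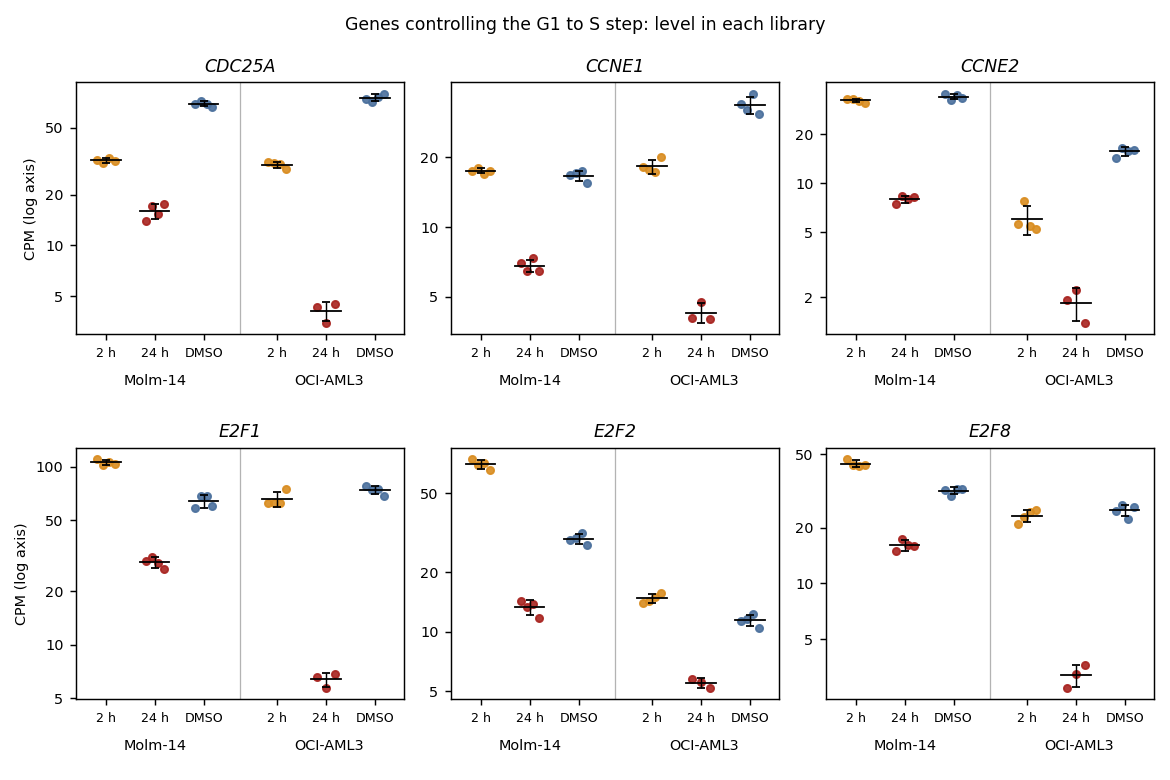
The level of the 6 G1 to S control genes in CPM (log axis) is shown for each library as a point, with the group mean (line) and SD (bar), for RMC-7977 at 2 h, RMC-7977 at 24 h and DMSO in Molm-14 and OCI-AML3. CDC25A is lower at 2 h in both lines, and CCNE1 and CCNE2 are lower at 2 h in OCI-AML3. E2F1 and E2F8 are higher at 2 h in Molm-14, E2F2 is higher at 2 h in both lines, and all 6 are lowest at 24 h.

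Origin licensing fell almost as a whole by 24 h. In Molm-14, 8 of its 10 genes fell (median -1.21), the others being CDT1 and MCM5, and in OCI-AML3 9 of 10 did (median -2.54), the other being CDT1. CDC6 (chr17:40287633-40304657), the ATPase that brings the MCM ring to the origin, had the largest change of the role. For CDC6, the Molm-14 libraries held 62.01, 61.1, 60.2 and 59.5 CPM at 2 h, 22.04, 22.9, 23.9 and 20.8 CPM at 24 h and 82.7, 79.5, 81.96 and 83.04 CPM in DMSO. Levels of CDC6 in OCI-AML3 were 58.5, 53.2, 56.5 and 50.8 CPM at 2 h, 3.504, 4.34 and 4.25 CPM at 24 h and 81.6, 80.9, 83.98 and 86.1 CPM in DMSO. The 3 groups of each line did not overlap, with 2 h between 24 h and DMSO. CDC6 in Molm-14 had a log2 fold change against DMSO of -0.43 ± 0.06 (adjusted p = 2.01e-07, not called) at 2 h and of -1.87 ± 0.06 (SE; limma adjusted p = 2.17e-22) at 24 h. CDC6 in OCI-AML3 had a log2 fold change against DMSO of -0.60 ± 0.06 (adjusted p = 2.74e-10, not called) at 2 h and of -4.37 ± 0.06 (SE; limma adjusted p = 4.64e-31) at 24 h.

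The 6 subunits of the MCM ring changed together in OCI-AML3, where log2 fold changes at 24 h ran from -2.24 (MCM3) to -3.37 (MCM4). In Molm-14 they ran from -0.99 (MCM5, not called) to -1.50 (MCM6). MCM4 (chr8:47960185-47978160) is described by library because it had one of the 3 smallest adjusted p-values in the difference between the lines. MCM4 had 701, 695, 669 and 698 CPM in Molm-14 at 2 h, 297, 297, 282 and 295 CPM at 24 h and 752, 721, 756 and 753 CPM in DMSO. In OCI-AML3, MCM4 had 478, 481, 483 and 460.0 CPM at 2 h, 57.4, 59.2 and 55.6 CPM at 24 h and 592, 588, 603 and 592 CPM in DMSO. MCM4 was slightly lower at 2 h than in any DMSO library of either line, far less than at 24 h. For MCM4 in Molm-14, the log2 fold change against DMSO was -0.11 ± 0.03 (adjusted p = 0.0046, not called) at 2 h and -1.35 ± 0.03 (SE; limma adjusted p = 5.71e-25) at 24 h. For MCM4 in OCI-AML3, the log2 fold change against DMSO was -0.32 ± 0.03 (adjusted p = 9.22e-10, not called) at 2 h and -3.37 ± 0.04 (SE; limma adjusted p = 2.94e-34) at 24 h.

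Within the origin recognition complex, ORC1, its largest subunit, had log2 fold changes at 24 h of -1.08 in Molm-14 and -2.41 in OCI-AML3. ORC6, its smallest, had values of -1.01 and -1.07, nearly equal in the lines and just past the threshold. With library totals they were -0.91 and -0.90, and ORC6 was then called in neither line. The Molm-14 call of ORC6 was also lost with median-of-ratios scaling (-0.94), with a pseudocount of 1 CPM (-0.99) and when some single Molm-14 libraries were left out. With library totals, ORC1 (-0.98) and MCM3 (-0.98) were under the threshold in Molm-14 too. In Molm-14, CDT1 was at 212, 187, 195 and 184 CPM after 2 h and 119.6, 119, 127 and 115 CPM after 24 h, against 147, 162, 148 and 148 CPM in DMSO. CDT1 in OCI-AML3 stood at 171, 178, 169 and 216 CPM at 2 h, 81.1, 69.1 and 71.4 CPM at 24 h and 146, 129.9, 142 and 118 CPM in DMSO. CDT1, the loading factor whose protein is destroyed in S phase, was thus above every DMSO library at 2 h and below every one at 24 h, in both lines. Its log2 fold changes against DMSO were 0.36 at 2 h and -0.33 at 24 h in Molm-14, and 0.45 at 2 h and -0.86 at 24 h in OCI-AML3, all under the threshold.

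Helicase activation held the deepest changes of all 9 roles in OCI-AML3. All 6 genes fell at 24 h in both lines, with medians of -1.43 in Molm-14 and -3.57 in OCI-AML3. MCM10 (chr10:13161554-13211104) encodes a factor that the loaded helicase needs to start unwinding. For MCM10, the Molm-14 libraries held 59.5, 64.7, 65.1 and 63.6 CPM at 2 h, 22.4, 19.7, 23.6 and 23.4 CPM at 24 h and 78.6, 79.96, 81.4 and 81.6 CPM in DMSO. Levels of MCM10 in OCI-AML3 were 48.7, 53.7, 54.2 and 47.02 CPM at 2 h, 2.05, 2.51 and 2.59 CPM at 24 h and 88.1, 88.5, 83.4 and 91.98 CPM in DMSO. No 2 groups of a line overlapped, and the OCI-AML3 libraries at 24 h were the lowest by a wide margin. Against DMSO in Molm-14, MCM10 had a log2 fold change of -0.35 ± 0.07 (adjusted p = 3.53e-05, not called) at 2 h and of -1.85 ± 0.07 (SE; limma adjusted p = 4.34e-21) at 24 h. Against DMSO in OCI-AML3, MCM10 had a log2 fold change of -0.79 ± 0.07 (adjusted p = 1.04e-11, not called) at 2 h and of -5.21 ± 0.07 (SE; limma adjusted p = 1.01e-31) at 24 h. CDC45 (chr22:19479459-19520612) encodes a core part of the active helicase. CDC45 had 77.1, 73.3, 71.98 and 75.2 CPM in Molm-14 at 2 h, 22.4, 24.5, 24.7 and 21.96 CPM at 24 h and 84.8, 78.8, 83.9 and 78.9 CPM in DMSO. In OCI-AML3, CDC45 had 77.5, 79.2, 84.3 and 82.1 CPM at 2 h, 3.34, 3.63 and 3.57 CPM at 24 h and 108, 93.7, 99.3 and 92.9 CPM in DMSO. Its order of groups was the one seen for MCM10, with 2 h just under DMSO. CDC45 in Molm-14 had a log2 fold change against DMSO of -0.13 ± 0.05 (adjusted p = 0.033, not called) at 2 h and of -1.80 ± 0.05 (SE; limma adjusted p = 5.58e-23) at 24 h. CDC45 in OCI-AML3 had a log2 fold change against DMSO of -0.28 ± 0.05 (adjusted p = 3.2e-05, not called) at 2 h and of -4.81 ± 0.06 (SE; limma adjusted p = 5.32e-33) at 24 h. The 4 GINS subunits, which complete the active helicase, had 24 h log2 fold changes between -1.46 (GINS3) and -1.14 (GINS4) in Molm-14 and between -3.95 (GINS2) and -2.93 (GINS4) in OCI-AML3.

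Polymerase and primase genes changed less. At 24 h 3 of 8 fell in Molm-14 (POLA1, POLA2 and POLE2; median -0.92) and 7 of 8 in OCI-AML3 (median -1.90), the other being POLD3, an accessory subunit of polymerase delta. POLE2 (chr14:49643555-49688422), the second subunit of the leading-strand polymerase epsilon, had the largest change. In Molm-14, POLE2 was at 22.1, 25.7, 25.1 and 22.7 CPM after 2 h and 9.43, 9.24, 9.61 and 11.2 CPM after 24 h, against 27.6, 25.5, 23.7 and 26.2 CPM in DMSO. POLE2 in OCI-AML3 stood at 17.8, 18.9, 16.9 and 16.99 CPM at 2 h, 2.45, 2.99 and 2.3001 CPM at 24 h and 18.9, 18.9, 21.8 and 17.1 CPM in DMSO. Its 2 h and DMSO ranges overlapped in both lines, and its 24 h libraries were apart from both. For POLE2 in Molm-14, the log2 fold change against DMSO was -0.11 ± 0.09 (adjusted p = 0.30, not called) at 2 h and -1.39 ± 0.09 (SE; limma adjusted p = 5.1e-15) at 24 h. For POLE2 in OCI-AML3, the log2 fold change against DMSO was -0.12 ± 0.09 (adjusted p = 0.26, not called) at 2 h and -2.90 ± 0.09 (SE; limma adjusted p = 1.56e-22) at 24 h. The catalytic subunits POLA1, POLD1 and POLE had 24 h log2 fold changes of -1.25, -0.69 and -0.76 in Molm-14, and of -1.99, -1.29 and -1.42 in OCI-AML3. Those of POLD1 and POLE were not called in Molm-14, nor were those of PRIM1, the primase catalytic subunit (-0.89), POLD2 (-0.95) and POLD3 (-0.84). PRIM1 and POLD2 fell in OCI-AML3 (log2 fold changes of -1.82 and -2.31), and POLD3 had -0.94 there, under the threshold.

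Among clamp, clamp loader and lagging strand genes, 4 of 8 fell at 24 h in Molm-14 (PCNA, RFC2, RFC3 and FEN1; median -1.02) and 7 of 8 in OCI-AML3 (median -1.91). FEN1 (chr11:61792637-61797244), the nuclease that trims the flaps between Okazaki fragments, changed most. For FEN1, the Molm-14 libraries held 107, 106, 107 and 114 CPM at 2 h, 49.4, 45.98, 48.6 and 49.8 CPM at 24 h and 147, 148, 141 and 143 CPM in DMSO. Levels of FEN1 in OCI-AML3 were 124, 125, 123 and 124 CPM at 2 h, 12.03, 13.1 and 10.6 CPM at 24 h and 185, 172, 183 and 174 CPM in DMSO. FEN1 was lower at 2 h than in every DMSO library of both lines, and lower again at 24 h. Against DMSO in Molm-14, FEN1 had a log2 fold change of -0.42 ± 0.05 (adjusted p = 1.07e-08, not called) at 2 h and of -1.58 ± 0.05 (SE; limma adjusted p = 1.29e-22) at 24 h. Against DMSO in OCI-AML3, FEN1 had a log2 fold change of -0.52 ± 0.05 (adjusted p = 1.04e-10, not called) at 2 h and of -3.91 ± 0.05 (SE; limma adjusted p = 6.74e-32) at 24 h. PCNA, the sliding clamp itself, had 24 h log2 fold changes of -1.32 in Molm-14 and -2.61 in OCI-AML3. The loader subunits RFC2 to RFC5 had values between -1.58 (RFC3) and -0.96 (RFC4) in Molm-14 and between -2.94 (RFC3) and -1.71 (RFC5) in OCI-AML3. The Molm-14 call of RFC2 was lost with library totals (-0.956) and with median-of-ratios scaling (-0.989). LIG1, the ligase that seals the fragments, had -0.91 in Molm-14, not called, and -1.33 in OCI-AML3, where it fell. RFC1 had 85.2, 93.1, 92.5 and 94.6 CPM in Molm-14 at 2 h, 58.1, 58.6, 61.3 and 60.8 CPM at 24 h and 87.5, 84.7, 86.3 and 89.2 CPM in DMSO. In OCI-AML3, RFC1 had 79.7, 80.9, 82.9 and 75.96 CPM at 2 h, 49.8, 48.2 and 49.7 CPM at 24 h and 69.6, 71.1, 72.1 and 71.6 CPM in DMSO. RFC1, the large loader subunit, was below DMSO at 24 h in every library but passed the fold threshold in neither line (log2 fold changes of -0.54 in Molm-14 and -0.53 in OCI-AML3).

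The 3 subunits of the single-strand binding protein RPA had the smallest median changes of the 9 roles. None was called at 24 h in Molm-14 (median -0.65), and RPA1 and RPA3 fell in OCI-AML3 (median -1.30). RPA3 (chr7:7636518-7718607), the smallest subunit, had the largest change. In Molm-14, RPA3 was at 23.8, 29.6, 28.5 and 29.1 CPM after 2 h and 14.1, 16.5, 16.3 and 14.5 CPM after 24 h, against 29.7, 25.9, 29.5 and 30.1 CPM in DMSO. RPA3 in OCI-AML3 stood at 53.7, 51.5, 44.8 and 51.4 CPM at 2 h, 15.04, 13.7 and 15.3 CPM at 24 h and 45.6, 44.4, 51.4 and 42.01 CPM in DMSO. The 24 h libraries lay at about the same level in both lines and below DMSO in each, while the 2 h and DMSO ranges overlapped. RPA3 in Molm-14 had a log2 fold change against DMSO of -0.06 ± 0.08 (adjusted p = 0.55, not called) at 2 h and of -0.91 ± 0.08 (SE; limma adjusted p = 4.4e-12, not called) at 24 h. RPA3 in OCI-AML3 had a log2 fold change against DMSO of 0.14 ± 0.08 (adjusted p = 0.12, not called) at 2 h and of -1.64 ± 0.08 (SE; limma adjusted p = 1.07e-17) at 24 h. RPA1, the subunit with most of the DNA contacts, had -0.65 in Molm-14 and -1.30 in OCI-AML3 at 24 h, and RPA2, which checkpoint kinases phosphorylate, had -0.58 and -0.95, both under the threshold.

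**Figure D3:**
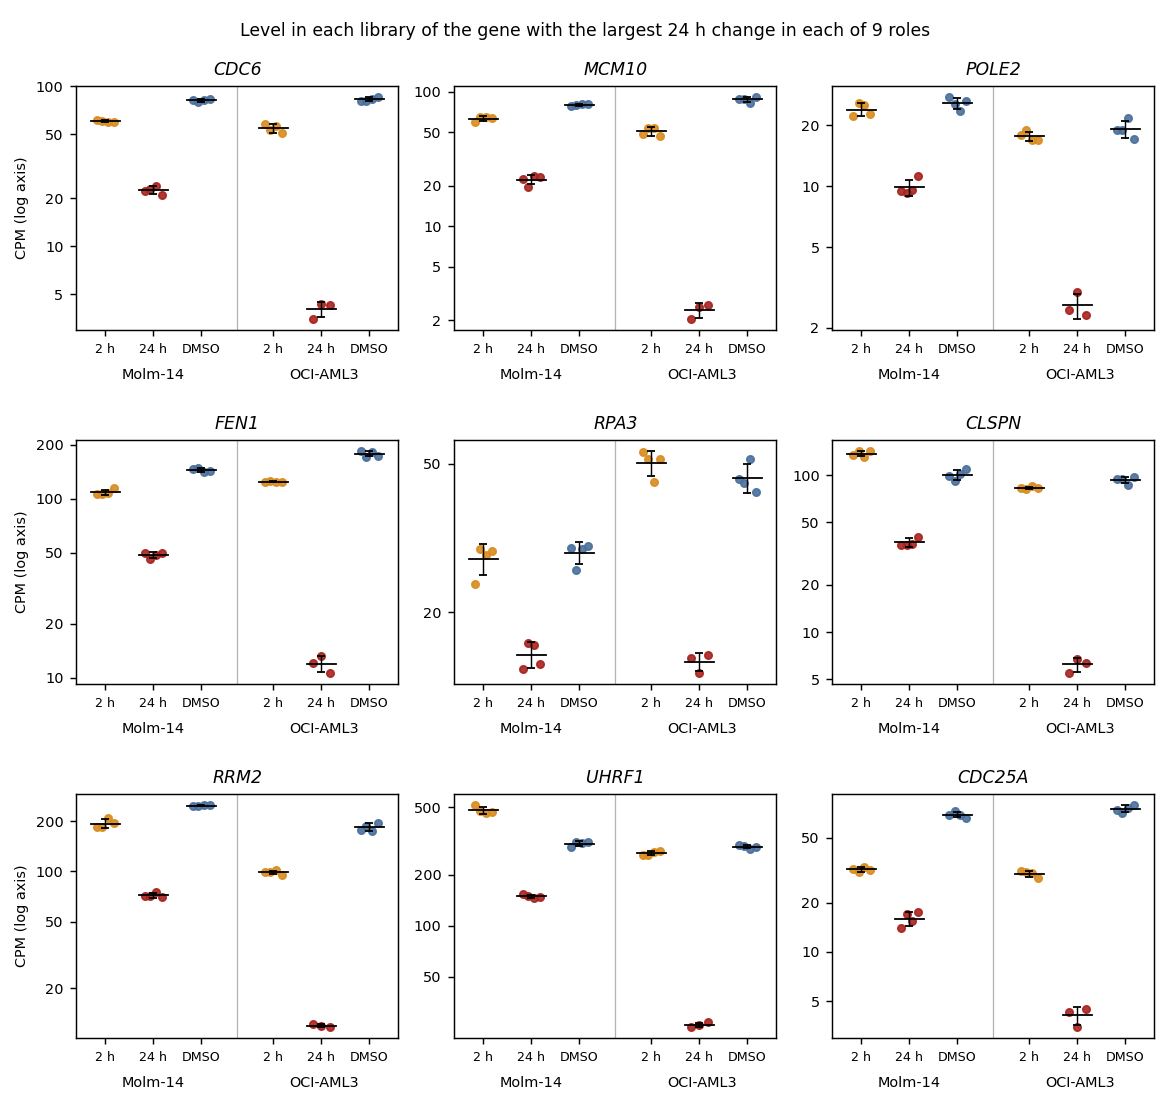
For each of the 9 roles, the gene with the largest 24 h change is shown as CPM (log axis) in each library (points), with the group mean (line) and SD (bar), for RMC-7977 at 2 h, RMC-7977 at 24 h and DMSO in Molm-14 and OCI-AML3. In all 9 panels the 24 h libraries lie below the others of their line, with the widest gap for MCM10 in OCI-AML3 (2.05 to 2.59 CPM at 24 h, against 83.4 to 92.0 CPM in DMSO).

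Fork protection and checkpoint genes fell at 24 h in 4 of 5 cases in Molm-14 (median -1.43), TIMELESS being the other (-0.79), and in 5 of 5 in OCI-AML3 (median -2.86). CLSPN (chr1:35720218-35769967) encodes claspin, the adaptor that passes the signal of a stalled fork to the checkpoint kinase CHEK1. For CLSPN, the Molm-14 libraries held 133, 142, 131 and 142 CPM at 2 h, 35.9, 35.9, 36.7 and 40.6 CPM at 24 h and 98.9, 91.3, 102 and 110.2 CPM in DMSO. Levels of CLSPN in OCI-AML3 were 82.8, 82.01, 85.2 and 82.4 CPM at 2 h, 5.497, 6.78 and 6.39 CPM at 24 h and 94.9, 94.1, 86.96 and 97.7 CPM in DMSO. At 2 h CLSPN was above all DMSO libraries in Molm-14 and below all of them in OCI-AML3, both under the fold threshold. For CLSPN in Molm-14, the log2 fold change against DMSO was 0.45 ± 0.06 (adjusted p = 1.19e-07, not called) at 2 h and -1.43 ± 0.06 (SE; limma adjusted p = 2.09e-19) at 24 h. For CLSPN in OCI-AML3, the log2 fold change against DMSO was -0.17 ± 0.06 (adjusted p = 0.016, not called) at 2 h and -3.91 ± 0.06 (SE; limma adjusted p = 7.85e-30) at 24 h. TIPIN and TIMELESS, which form a complex at the fork, had unlike values at 2 h. TIPIN had log2 fold changes of -0.69 at 2 h and -1.71 at 24 h in Molm-14 and of -0.57 and -2.19 in OCI-AML3, and TIMELESS had 0.10 and -0.79 in Molm-14 and 0.12 and -2.14 in OCI-AML3. DTL, which targets CDT1 for destruction, had 24 h values of -1.47 in Molm-14 and -3.32 in OCI-AML3, and WDHD1, which tethers polymerase alpha to the helicase, had -1.20 and -2.86.

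Nucleotide supply genes fell at 24 h in 3 of 4 cases in Molm-14 (median -1.17) and in 4 of 4 in OCI-AML3 (median -2.94). RRM2 (chr2:10120698-10131419) encodes the S phase subunit of ribonucleotide reductase, the enzyme that makes deoxynucleotides. RRM2 had 184, 184, 209 and 194 CPM in Molm-14 at 2 h, 71.2, 71.1, 74.9 and 70.05 CPM at 24 h and 246, 244, 248 and 249.8 CPM in DMSO. In OCI-AML3, RRM2 had 98.9, 98.97, 101 and 95.04 CPM at 2 h, 12.2, 11.95 and 11.8 CPM at 24 h and 178, 187, 175 and 196 CPM in DMSO. RRM2 was already below every DMSO library of its line at 2 h and lower again at 24 h. Against DMSO in Molm-14, RRM2 had a log2 fold change of -0.36 ± 0.04 (adjusted p = 2.03e-08, not called) at 2 h and of -1.78 ± 0.04 (SE; limma adjusted p = 4.88e-25) at 24 h. Against DMSO in OCI-AML3, RRM2 had a log2 fold change of -0.90 ± 0.04 (adjusted p = 3.39e-17, not called) at 2 h and of -3.94 ± 0.05 (SE; limma adjusted p = 4.47e-33) at 24 h. RRM1, its partner subunit, had 24 h log2 fold changes of -1.24 in Molm-14 and -2.48 in OCI-AML3, with 0.00 and -0.05 at 2 h. TYMS, thymidylate synthase, had 24 h values of -1.11 in Molm-14 and -3.33 in OCI-AML3. TK1 (chr17:78174075-78187233) encodes the thymidine kinase of cycling cells. In Molm-14, TK1 was at 137, 118, 118 and 119 CPM after 2 h and 52.8, 50.6, 53.1 and 51.3 CPM after 24 h, against 103, 96.6, 97.3 and 93.5 CPM in DMSO. TK1 in OCI-AML3 stood at 331, 330.0, 341 and 378 CPM at 2 h, 59.3, 55.2 and 48.7 CPM at 24 h and 347, 299.6, 347 and 279 CPM in DMSO. At 2 h TK1 was above every DMSO library in Molm-14 and overlapped DMSO in OCI-AML3, and at 24 h the lines had nearly the same level although OCI-AML3 had the higher DMSO level. TK1 in Molm-14 had a log2 fold change against DMSO of 0.33 ± 0.07 (adjusted p = 7.11e-05, not called) at 2 h and of -0.91 ± 0.07 (SE; limma adjusted p = 1.81e-13, not called) at 24 h. TK1 in OCI-AML3 had a log2 fold change against DMSO of 0.12 ± 0.07 (adjusted p = 0.10, not called) at 2 h and of -2.55 ± 0.07 (SE; limma adjusted p = 8.1e-24) at 24 h.

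All 3 genes of chromatin behind the fork fell at 24 h in both lines, with medians of -1.25 in Molm-14 and -3.00 in OCI-AML3. UHRF1 (chr19:4903080-4962154) encodes the protein that reads newly copied, hemimethylated DNA and brings in the maintenance methyltransferase. For UHRF1, the Molm-14 libraries held 516, 474, 464 and 472 CPM at 2 h, 153, 149.8, 145 and 148 CPM at 24 h and 290.0, 312, 309 and 311 CPM in DMSO. Levels of UHRF1 in OCI-AML3 were 261, 262, 272 and 277 CPM at 2 h, 25.4, 25.9 and 26.8 CPM at 24 h and 299.5, 293, 284 and 292 CPM in DMSO. UHRF1 at 2 h was above every DMSO library in Molm-14 and below every one in OCI-AML3, and was lowest at 24 h in both. For UHRF1 in Molm-14, the log2 fold change against DMSO was 0.66 ± 0.04 (adjusted p = 2.23e-15, not called) at 2 h and -1.04 ± 0.04 (SE; limma adjusted p = 1.09e-20) at 24 h. For UHRF1 in OCI-AML3, the log2 fold change against DMSO was -0.13 ± 0.04 (adjusted p = 0.0053, not called) at 2 h and -3.49 ± 0.04 (SE; limma adjusted p = 4.47e-33) at 24 h. With library totals the Molm-14 fold change at 24 h was -0.94, and with median-of-ratios scaling it was -0.97, both under the threshold. CHAF1A and CHAF1B, subunits of the factor that places histones on new DNA, had 24 h log2 fold changes of -1.25 and -1.27 in Molm-14 and -2.54 and -3.00 in OCI-AML3.

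Taking the calls at 24 h gene by gene, 36 members fell in both lines, 13 were called in OCI-AML3 and not in Molm-14, and 4 (CDT1, RFC1, POLD3 and RPA2) were called in neither. The 13 were MCM5, POLD1, POLD2, POLE, PRIM1, RFC4, RFC5, LIG1, RPA1, RPA3, TIMELESS, TK1 and E2F8, whose Molm-14 log2 fold changes ran from -0.99 (MCM5) to -0.65 (RPA1). MCM5, RFC5 and E2F8 were the closest to the threshold in Molm-14, at -0.99, -0.98 and -0.98.

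The difference in response between the lines, OCI-AML3 minus Molm-14, was tested as a contrast in the same limma fit. At 24 h 36 of 53 members had a more negative response in OCI-AML3 and none the reverse, while 9.75% of all genes were called in that direction, 8.09% in the other and 17.8% in either. Which 36 these were is another set than the 36 that fell in both lines, since it includes TK1, TIMELESS, POLD2, MCM5 and E2F8. The member median of the difference was -1.36 against -0.05 over all genes, and 51 of 53 members were below 0, the others being E2F2 (0.10) and RFC1 (0.01). With library totals ORC6 (-0.07 as reported) was above 0 too, and RFC1 was below 0 when single Molm-14 libraries were left out. The smallest adjusted p-values belonged to UHRF1 (difference -2.45 ± 0.06 SE, limma adjusted p = 9.55e-25), MCM4 (-2.02 ± 0.05, adjusted p = 2.56e-24) and CDC45 (-3.00 ± 0.08, adjusted p = 1.58e-23). The largest differences were those of MCM10 (-3.36 ± 0.10) and CDC45. By role, 6 of 6 helicase activation genes, 4 of 4 nucleotide genes and 3 of 3 chromatin genes were called, against 3 of 8 polymerase and primase genes, 3 of 8 clamp, loader and lagging strand genes and 0 of 3 RPA genes. For CCNE2 the called difference (-1.02 ± 0.16 SE, limma adjusted p = 2.71e-06) was -0.63 with a pseudocount of 1 CPM and -0.83 without the fourth OCI-AML3 library at 24 h, both under the threshold. It was also under the threshold with library totals (-0.96) and without replicate 2 of OCI-AML3 in DMSO (-0.998).

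Across the 53 members the 24 h responses of both lines, which rest on separate libraries, had a Pearson r of 0.797 and a Spearman rho of 0.797. This is given as a description, since the genes share libraries and are not independent. The median ratio of the OCI-AML3 to the Molm-14 log2 fold change was 2.09.

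**Figure D4:**
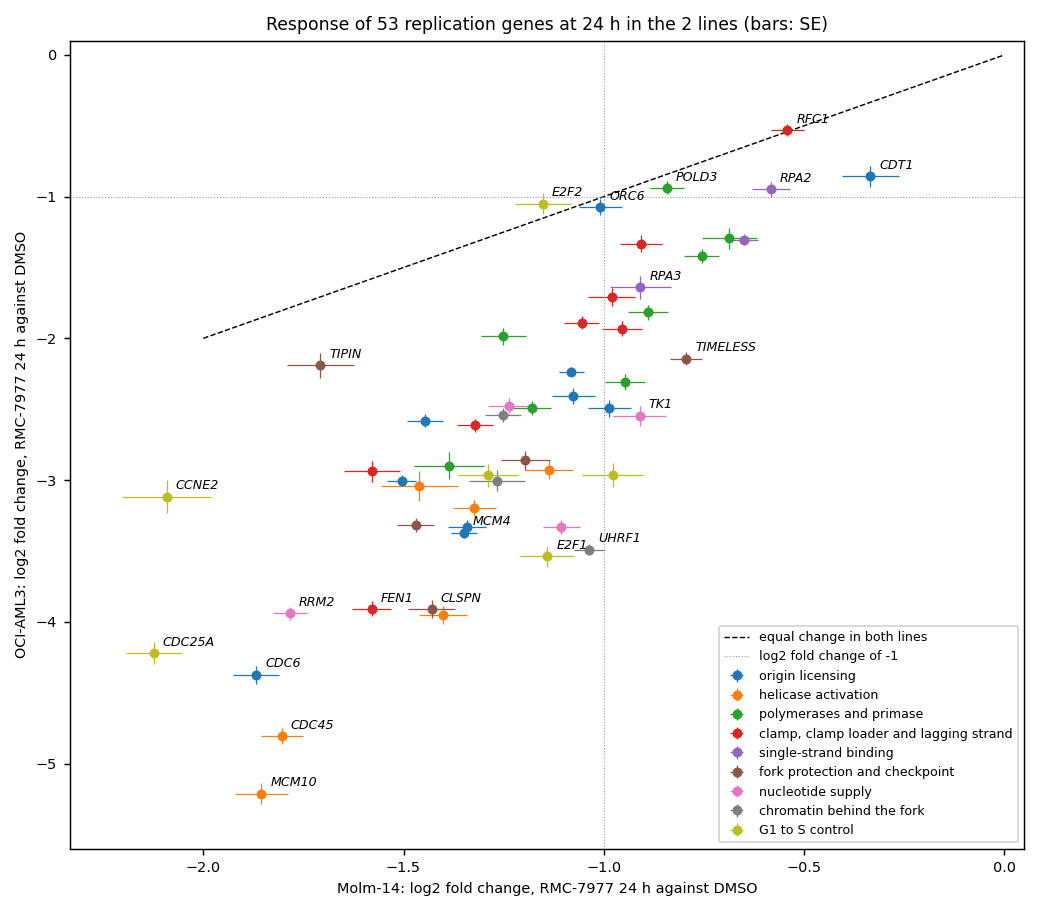
Each point is 1 of the 53 genes, coloured by role, with its log2 fold change at 24 h against DMSO in OCI-AML3 (vertical axis) and in Molm-14 (horizontal axis), bars showing the SE. All but 2 points, E2F2 and RFC1, lie below the dashed line of equal change, and the dotted lines mark a log2 fold change of -1.

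At 2 h the difference between the lines was called for 1 of 53 members, CCNE2 (-1.33 ± 0.16 SE, limma adjusted p = 4.98e-08), while 5.64% of all genes were called, 3.52% in the negative and 2.12% in the positive direction. All 6 G1 to S control genes had a difference below 0 at 2 h, from -0.21 (CDC25A) to -1.33 (CCNE2). The smallest adjusted p-values were those of UHRF1 (-0.78 ± 0.05 SE, limma adjusted p = 6.38e-13), E2F1 (-0.90 ± 0.10, adjusted p = 7.55e-09) and E2F2 (-0.88 ± 0.10, adjusted p = 2.17e-08), all under the fold threshold. The 2 h log2 fold changes of these genes were 0.66, 0.73 and 1.25 in Molm-14, and the OCI-AML3 values were -0.13 for UHRF1, -0.17 for E2F1 and 0.37 for E2F2.

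Between 2 h and 24 h of treatment, 40 of 53 members fell in Molm-14, where 3.38% of all genes were called lower, 7.25% higher and 10.6% in either direction. In OCI-AML3 49 of 53 fell, where 10.9% of all genes were called lower, 11.6% higher and 22.6% in either direction. Each of the 53 members was lower in every 24 h library than in every 2 h library of its line, against 32.5% of all genes in Molm-14 and 38.3% in OCI-AML3, where 30.6% and 37.9% were higher in this way. E2F2 had the largest change between the times in Molm-14 (-2.41 ± 0.07 SE, limma adjusted p = 8.46e-23), and CDC45 in OCI-AML3 (-4.52 ± 0.06 SE, limma adjusted p = 5.45e-32). This comparison uses the treated libraries of the comparisons above and is no independent measurement of them.

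In DMSO most replication genes differed between the lines by less than the fold threshold. Most did so without overlap, which was near the rate over all genes given at the end of this paragraph. Between OCI-AML3 and Molm-14, 2 of 53 members were higher in OCI-AML3 and 2 lower, while 30.2% of all genes were called, 17.9% higher and 12.2% lower. TK1 averaged 318 ± 34.3 CPM in OCI-AML3 and 97.7 ± 4.11 CPM in Molm-14 (SD, n = 4 each), a log2 fold change of 1.70 ± 0.07 SE (limma adjusted p = 3.28e-20). CCNE1 averaged 33.5 ± 2.902 CPM in OCI-AML3 and 16.7 ± 0.843 CPM in Molm-14 (1.01 ± 0.08 SE, limma adjusted p = 2.66e-13), just past the threshold and under it (0.94 to 0.97) in 4 alternatives. E2F2 averaged 11.4 ± 0.779 CPM in OCI-AML3 and 29.5 ± 1.696 CPM in Molm-14 (-1.37 ± 0.07 SE, limma adjusted p = 1.9e-17). CCNE2 averaged 15.7 ± 0.927 CPM in OCI-AML3 and 34.04 ± 1.28 CPM in Molm-14 (-1.12 ± 0.11 SE, limma adjusted p = 1.31e-10). OCI-AML3 had more CCNE1 and less CCNE2 than Molm-14, with no overlap of libraries for either. Of the 53 members, 25 lay below and 17 above in every OCI-AML3 library against every Molm-14 library in DMSO, where 34.1% of all genes lay below and 42.0% above.

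Another 81 genes of the pathway, all measured, were counted as a surrounding list, which takes in other licensing factors, fork proteins, E2F partners and checkpoint kinases. At 24 h 21 fell and 2 rose in Molm-14, and 48 fell and 2 rose in OCI-AML3, with medians of -0.78 and -1.19. Over all genes, 6.57% were called lower and 11.4% higher in Molm-14, and 17.1% lower and 18.4% higher in OCI-AML3. Of these genes 20 fell in both lines, 28 were called lower in OCI-AML3 and not in Molm-14, and 1 the reverse. At 2 h none was called in Molm-14 and 1, POLD4, rose in OCI-AML3, against 7.29% and 6.58% of all genes called in either direction. The difference in response at 24 h was called for 19 of the 81, all more negative in OCI-AML3, where 9.75% of all genes were called in that direction and 17.8% in either. In DMSO 5 were higher in OCI-AML3 than in Molm-14 and 7 lower, against 17.9% and 12.2% of all genes.

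The 2 that rose at 24 h were the same genes in both lines. POLD4 encodes the smallest subunit of polymerase delta, which is removed from the enzyme after DNA damage. POLD4 had 29.2, 24.4, 27.9 and 26.9 CPM in Molm-14 at 2 h, 48.2, 46.04, 43.9 and 42.1 CPM at 24 h and 17.2, 19.4, 18.2 and 19.7 CPM in DMSO. In OCI-AML3, POLD4 had 49.5, 43.7, 49.5 and 56.96 CPM at 2 h, 94.7, 88.2 and 78.3 CPM at 24 h and 20.9, 20.1, 22.9 and 19.8 CPM in DMSO. POLD4 was above every DMSO library at 2 h and higher again at 24 h in both lines. Against DMSO in Molm-14, POLD4 had a log2 fold change of 0.54 ± 0.07 (adjusted p = 2e-07, not called) at 2 h and of 1.27 ± 0.07 (SE; limma adjusted p = 5.82e-16) at 24 h. Against DMSO in OCI-AML3, POLD4 had a log2 fold change of 1.25 ± 0.07 (adjusted p = 3.73e-15) at 2 h and of 2.06 ± 0.08 (SE; limma adjusted p = 1.17e-20) at 24 h. SAMHD1 encodes a hydrolase that breaks down deoxynucleotides and is abundant in resting myeloid cells. In Molm-14, SAMHD1 was at 86.2, 78.8, 79.5 and 84.7 CPM after 2 h and 147, 145, 149 and 153 CPM after 24 h, against 71.3, 70.3, 74.4 and 71.7 CPM in DMSO. SAMHD1 in OCI-AML3 stood at 426, 401, 423 and 414 CPM at 2 h, 779, 787 and 769 CPM at 24 h and 369, 356, 361 and 368 CPM in DMSO. SAMHD1 was highest at 24 h in both lines with no overlap, and its DMSO level was higher in OCI-AML3. SAMHD1 in Molm-14 had a log2 fold change against DMSO of 0.19 ± 0.04 (adjusted p = 2.74e-05, not called) at 2 h and of 1.04 ± 0.04 (SE; limma adjusted p = 2.03e-21) at 24 h. SAMHD1 in OCI-AML3 had a log2 fold change against DMSO of 0.19 ± 0.04 (adjusted p = 2.65e-05, not called) at 2 h and of 1.10 ± 0.04 (SE; limma adjusted p = 1.17e-21) at 24 h.

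Other measures also differed between the groups. The summed level of the 10 listed myeloid markers was 968 to 1096 CPM at 2 h, 1405 to 1505 CPM at 24 h and 931 to 1014 CPM in DMSO in Molm-14, and 1963 to 2168 CPM at 2 h, 6285 to 6518 CPM at 24 h and 1927 to 2116 CPM in DMSO in OCI-AML3. At 24 h 5 of the 10 rose in each line, among them CSF1R, ITGAM, TYROBP and CSF3R. The remaining one was LYZ in OCI-AML3 and FCER1G in Molm-14. Over all genes, 11.4% were called higher in Molm-14 and 18.4% in OCI-AML3. FCER1G had low levels in Molm-14, 1.01 to 1.91 CPM at 24 h and 0.37 to 0.70 CPM in DMSO. MPO fell in Molm-14, where 6.57% of all genes were called lower. Its levels there were low too, 0.37 to 1.10 CPM at 24 h and 2.47 to 3.23 CPM in DMSO. Most of the summed difference in OCI-AML3 was in LYZ, lysozyme, singled out after its values were seen. LYZ was at 556 to 586 CPM at 2 h, 3584 to 3976 CPM at 24 h and 559 to 599 CPM in DMSO there, and at 92.3 to 103 CPM, 102 to 109.8 CPM and 89.7 to 102 CPM in Molm-14. The 3 genes listed as epithelial and stromal were summed too, and nearly all of the sum was PECAM1. In Molm-14 the sum was 172 to 174 CPM at 2 h, 136 to 145 CPM at 24 h and 87.6 to 89.9 CPM in DMSO. In OCI-AML3 it was 32.5 to 38.5, 76.9 to 80.1 and 32.7 to 36.7 CPM. The 3-gene sum was thus highest at 2 h in Molm-14 and at 24 h in OCI-AML3. Because it follows PECAM1, it is not read as a sign of epithelial or stromal cells. The share of CPM in mitochondrial genes was 4.93% to 5.52% at 2 h, 3.41% to 3.99% at 24 h and 4.13% to 5.18% in DMSO in Molm-14. In OCI-AML3 it was 5.33% to 6.24%, 5.59% to 6.02% and 4.74% to 5.86%, so all 3 groups overlapped there, while in Molm-14 the 24 h libraries lay below the others. The part of these measures in the fall of the replication genes was not tested.

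Some members share sequence with other genes, and whether the counting used strand is not stated. In GENCODE release 29 (GRCh38), 13 members share exon bases with another gene of the table, among them CCNE2 with INTS8 (1629 bases), TYMS with ENOSF1 (967), MCM7 with AP4M1 (392), FEN1 with TMEM258 (166) and RPA3 with UMAD1 (118), each on the opposite strand. A further reason for caution is that RRM2, TYMS, PCNA, RFC3, RFC5, POLD2, FEN1 and RPA2 have named pseudogenes. For these genes reads of the partner could be counted in the level, so the exact fold changes are uncertain.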

How the data were processed

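Poly(A) RNA-seq of 24 labelled libraries was deposited as 1 table of log2 CPM for 13033 gene symbols, with 23 library columns, matched to samples by the library name in the labels. Per the submitters' processing notes, the authors worked on hg38 (GRCh38) and used limma 3.38.3 and edgeR 3.24.3 beside STAR 2.7.8a, RSEM 1.3.3, MultiQC 1.28 and Trimmomatic 0.36. No order, settings, strand option or low-count filter is given in the sources used here. All 23 libraries share 1 lowest value (log2 CPM -3.26), as a prior count gives, so fold changes of low genes are understated.

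Effective library sizes, the scaled sizes behind these CPM, of 15.4 to 22.4 M reads (median 18.4) were recovered from the spacing of low values and are not read totals. Of values up to 20 reads, 74.7% to 82.8% lay within 0.05 of a whole read, so no count test was run. The planned design named a count test for counts and limma for log2 values, and limma was used.

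One limma 3.58.1 fit (R 4.3.3, trend and robust moderation, 6 group means, no covariate) gave 9 contrasts, with p-values adjusted over all 13033 genes. The fit was tested on simulated data. Levels are 2 to the power of the deposited log2 CPM. The 53 genes, their roles and the other lists were chosen with earlier results of these data known. Values in every library are given for the gene with the largest 24 h change in each role, genes called at 2 h or called higher, the 3 smallest adjusted p-values in each difference between lines, and the called differences in DMSO. CDT1 and RFC1 were added to these after their values were seen. Other pathway genes are named only where called at 2 h or called higher at 24 h. Alternatives were library totals, median-of-ratios scaling, a pseudocount of 1 CPM, a mean of at least 5 CPM, no trend or robust moderation, each line fitted alone, a replicate block and leaving out each library. The labels do not say what a replicate number shares. Deviations of same-numbered libraries correlated above 0.1 in every pair for 1 of 15 pairs of groups, OCI-AML3 at 24 h with OCI-AML3 in DMSO (0.557, 0.277 and 0.511). Over all groups 24 of 55 such correlations were above 0.1, and this pair of groups rests on 3. Whether these libraries are paired is therefore not settled. In the other 14, among them OCI-AML3 at 2 h with DMSO (-0.576 to 0.134), not every correlation was above 0.1.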

Additional observations from a re-analysis of the deposited data

Results flagged for a closer look

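In groups of 4 libraries, a library was singled out where its gap to the nearest of the others exceeded the 95% critical value of Dixon's test. Of 80 groups tested, 9 did so, where chance gives about 1 in 20. In Molm-14 at 2 h, TK1 was at 137 CPM in replicate 1, against 118 to 119 CPM in the others. FEN1 was at 114 CPM in replicate 4 of that group, against 106 to 107 CPM. In Molm-14 at 24 h, MCM4 was at 282 CPM in replicate 3, against 295 to 297 CPM, and CLSPN was at 40.6 CPM in replicate 4, against 35.9 to 36.7 CPM. In Molm-14 with DMSO, replicate 2 was at 721 CPM for MCM4, against 752 to 756 CPM, and at 25.9 CPM for RPA3, against 29.5 to 30.1 CPM, and replicate 1 was at 290.0 CPM for UHRF1, against 309 to 312 CPM. In OCI-AML3 at 2 h, CCNE2 was at 7.79 CPM in replicate 2, against 5.24 to 5.59 CPM, and E2F1 was at 75.1 CPM in replicate 4, against 62.3 to 62.8 CPM.

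The response differed between the lines, by the contrast of OCI-AML3 minus Molm-14 in the limma fit, for CCNE2 at 2 h (-1.33) and for 36 genes at 24 h. At 24 h the differences in log2 fold change were -3.36 for MCM10, -3.00 for CDC45, -2.55 for GINS2, -2.50 for CDC6, -2.48 for CLSPN, -2.45 for UHRF1, -2.40 for E2F1, -2.33 for FEN1 and -2.23 for TYMS. They were -2.16 for RRM2, -2.10 for CDC25A, -2.02 for MCM4, -1.99 for MCM2, -1.99 for E2F8, -1.87 for GINS1, -1.84 for DTL, -1.79 for GINS4 and -1.74 for CHAF1B. Smaller ones were -1.68 for CCNE1, -1.66 for WDHD1, -1.63 for TK1, -1.58 for GINS3, -1.51 for POLE2, -1.51 for MCM5, -1.50 for MCM6, -1.36 for RFC3 and -1.36 for POLD2, and -1.35 for TIMELESS, -1.33 for ORC1, -1.31 for POLA2, -1.29 for PCNA, -1.29 for CHAF1A, -1.24 for RRM1, -1.15 for MCM3, -1.13 for MCM7 and -1.02 for CCNE2. All 36 were more negative in OCI-AML3.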

How the results depend on the processing

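All counts of called members stayed within 1.5 times their reported values under each alternative that was run. Leaving out each library in turn gave 35 to 38 called members in Molm-14 at 24 h, 49 in OCI-AML3 at 24 h, 2 at 2 h in each line, 38 to 41 and 49 between 24 h and 2 h in Molm-14 and OCI-AML3, 35 to 37 in the 24 h difference, 1 in the 2 h difference and 3 to 4 in DMSO. The other alternatives gave 31 to 36 in Molm-14 at 24 h, 47 to 49 in OCI-AML3 at 24 h and 35 to 36 in the 24 h difference. Between 24 h and 2 h in Molm-14 they gave 32 to 40. Of 14204 recomputed gene values, 50 lost and 8 gained a call, and 0 called values changed sign. All 58 had a reported absolute log2 fold change between 0.97 and 1.08. Another 67 values, none of them called, changed sign, with reported absolute values up to 0.066. Library totals moved the median of all genes by 0.17 in OCI-AML3 at 24 h and 0.10 between 24 h and 2 h there, and left the member median at -2.41 at 24 h. The replicate block over all 6 groups gave 36 calls in Molm-14 and 49 in OCI-AML3 at 24 h, as without it, and changed no call of a member. A block on the OCI-AML3 24 h and DMSO libraries alone, chosen after the data were seen, gave the same 49 calls and a member median of -2.55. With 3 libraries, OCI-AML3 at 24 h has the weakest estimate.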
